A study of Mus musculus with 16 samples.

Results

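Serine is made in the cytosol from an intermediate of glycolysis by 3 enzymes, PHGDH, PSAT1 and PSPH, and its side-chain carbon is then handed to folate by serine hydroxymethyltransferase. The reactions that carry this carbon on folate run in parallel in the cytosol and in the mitochondria, with separate enzymes on each side, and they feed the synthesis of purines, thymidylate and methionine and the making of NADPH. In many tissues the mitochondrial side oxidizes the carbon to formate, which leaves for the cytosol, and several of these enzymes are known targets of ATF4, the transcription factor of the integrated stress response. The 10 genes described here encode these enzymes and were taken as a named list, which was chosen with earlier results of these data known. They are Phgdh, Psat1 and Psph for serine synthesis, Shmt1, Mthfd1 and Aldh1l1 for the cytosolic folate reactions, and Shmt2, Mthfd2, Mthfd1l and Aldh1l2 for the mitochondrial ones. They are 10 of the 51060 genes in the table, and all 10 were among the 15632 genes with enough counts to be tested.

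The data were RNA sequencing of interscapular brown adipose tissue (BAT) from mice aged 7 weeks, fed standard chow without restriction and kept at room temperature. OPA1 BKO mice were Opa1 fl/fl and carried Cre under the Ucp1 promoter, so recombination was directed at cells that express Ucp1, and WT mice were Opa1 fl/fl littermates without Cre. All mice were on the C57Bl/6J background, and there were 4 WT females, 4 WT males, 4 OPA1 BKO females and 4 OPA1 BKO males. OPA1 is a protein of the inner mitochondrial membrane that drives its fusion and shapes its cristae. The comparison asked how loss of OPA1 from brown adipocytes changed the transcripts of these enzymes, and whether those of the mitochondrial enzymes changed by another amount than those of their cytosolic counterparts.

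The libraries held 13607283 to 23114534 estimated counts each. Levels are given as CPM, counts scaled to the library size after TMM normalization, and a log2 fold change is OPA1 BKO against WT on that scale. Opa1 itself was at 152 to 210 CPM in WT against 17.9 to 36.9 CPM in OPA1 BKO mice, so every library went with the genotype of its label. The mitochondrial genome took 23.3% to 30.5% of the counts in WT against 4.44% to 9.02% in OPA1 BKO mice. By the quasi-likelihood test of edgeR with an adjusted p-value under 0.05, 20.8% of all genes tested were higher in OPA1 BKO mice and 20.2% were lower, and 5.07% had every OPA1 BKO mouse above every WT mouse while 4.89% had every one below. The summed level of 10 brown adipocyte markers was 15145 to 22938 CPM in WT against 8893 to 14455 CPM in OPA1 BKO mice. The list also held Adipoq, Fabp4, Plin1 and Lep, which are not particular to brown adipocytes. Of these markers, 4 were lower, Cidea, Cox8b, Adipoq and Fabp4, and 1 was higher, Elovl3. Ucp1, Dio2, Ppargc1a, Plin1 and Lep were not called. Fabp4 alone was at 8470.5 CPM on average in WT against 4830.7 CPM in OPA1 BKO mice. Markers of other cell types were also higher or lower with genotype. The summed level of 8 macrophage markers, all 8 higher, was 96.8 to 138 CPM in WT against 131 to 538 CPM in OPA1 BKO mice, that of 5 proliferation markers, 4 of them higher, 4.04 to 8.002 against 12.4 to 40.9 CPM, that of 4 fibroblast markers, 3 of them higher, 158 to 257 against 187 to 389 CPM, and that of 4 endothelial markers, 3 of them lower, 717 to 989 against 588 to 801 CPM. The summed level of 6 skeletal muscle markers, 0 of them called, varied from mouse to mouse, from 16.8 to 5448 CPM in WT against 2.91 to 12890 CPM in OPA1 BKO mice. In bulk tissue, more cells of a type and more RNA per cell cannot be told apart.

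The genes differed in the sequence just before their start. For 9 of the 10 genes, RefSeq on GRCm38.p6 gave 10 windows of 300 bases around a transcription start, and no window was used for Aldh1l2. These windows were searched on both strands for TGATGNAA, the C/EBP-ATF response element to which ATF4 binds with a partner, and for CACGTG, the E-box. Neither was found in any of the 10 windows, while 3.97% of 32851 promoter windows of the same length held the first and 7.15% held the second. These 10 windows are too few to tell 0 matches from such shares. CCAAT, the box bound by NF-Y, was searched for after the windows had been read. It occurred on either strand in 7 of the 10 windows, against 37.4% of all windows. The 250 bases before the start are printed for the enzymes with large changes in expression and, for contrast, for Shmt2, the mitochondrial enzyme that changed least, each 5′ to 3′ on the strand of the gene with CCAAT or its complement ATTGG in capitals.
Phgdh, chr3:98339970-98340219, minus strand: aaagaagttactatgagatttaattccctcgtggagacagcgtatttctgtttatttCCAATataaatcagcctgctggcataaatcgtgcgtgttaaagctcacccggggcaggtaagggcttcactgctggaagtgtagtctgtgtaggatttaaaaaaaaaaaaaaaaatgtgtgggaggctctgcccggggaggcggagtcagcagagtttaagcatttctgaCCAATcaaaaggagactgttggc
Psat1, chr19:15925060-15925309, minus strand: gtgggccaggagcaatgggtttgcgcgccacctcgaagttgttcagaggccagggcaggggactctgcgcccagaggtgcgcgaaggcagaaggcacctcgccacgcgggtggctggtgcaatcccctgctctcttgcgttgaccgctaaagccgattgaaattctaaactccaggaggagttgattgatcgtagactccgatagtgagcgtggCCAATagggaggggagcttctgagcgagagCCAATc
Mthfd2, chr6:83317605-83317854, minus strand: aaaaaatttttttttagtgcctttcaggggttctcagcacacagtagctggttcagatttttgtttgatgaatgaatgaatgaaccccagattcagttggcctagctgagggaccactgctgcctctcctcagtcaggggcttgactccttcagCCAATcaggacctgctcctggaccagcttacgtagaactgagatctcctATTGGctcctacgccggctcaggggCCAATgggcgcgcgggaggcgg
Shmt2, chr10:127522445-127522694, minus strand: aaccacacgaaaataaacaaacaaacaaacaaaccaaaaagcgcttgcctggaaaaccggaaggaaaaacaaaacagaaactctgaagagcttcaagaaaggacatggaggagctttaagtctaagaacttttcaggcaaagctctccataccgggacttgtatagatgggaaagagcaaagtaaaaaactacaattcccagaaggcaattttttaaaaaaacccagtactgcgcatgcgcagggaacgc
Phgdh and Psat1 each held 2 such boxes in these 250 bases, Mthfd2 held 3 and Shmt2 held 0. In Phgdh, Psat1 and Mthfd2 the box nearest to the start began 23, 6 and 22 bases before it, and in each it lay on the strand of the gene. Boxes also occurred before enzymes that did not rise, since Psph and Aldh1l1 each held 2 and Shmt1 and Mthfd1 each held 1, and Mthfd1l, which rose, held 0. The last 21 bases of the Phgdh stretch and the last 2 of the Mthfd2 stretch were exon of the same gene in GENCODE M21. The printed stretches of Psat1 and Shmt2 held no annotated exon. A match of these letters is a description and does not show that a factor binds there.

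In the serine synthesis pathway, transcripts of the first 2 enzymes were several-fold higher in OPA1 BKO mice, and that of the last did not pass the test. Phgdh (chr3:98313170-98339990, GRCm38) encodes phosphoglycerate dehydrogenase, the step that commits 3-phosphoglycerate to serine. It was at 5.96, 3.43, 11.4 and 23.4 CPM in WT females and at 7.63, 5.39, 9.08 and 8.65 CPM in WT males. In OPA1 BKO mice it was at 52.3, 51.6, 68.0 and 59.4 CPM in females and at 95.4, 78.2, 68.1 and 52.9 CPM in males. The 8 OPA1 BKO mice all exceeded the 8 WT mice, and the highest WT value, that of WT female 4, was well apart from the other 7. The mean was 9.36 ± 6.16 CPM for WT against 65.7 ± 15.2 CPM for OPA1 BKO mice (SD, n = 8 each). On the log2 scale the change was 2.81 with a standard error of 0.31 (7.02-fold, edgeR adjusted p = 3.85e-06). Phgdh shared 55.9% of its 31-base words with other genes, 22 processed pseudogenes and 1 unclassified gene, so its counts are uncertain in principle. Together those 23 genes were given 1 to 6 counts per WT mouse and 0 to 7.07 per OPA1 BKO mouse, against 56 to 472 and 974 to 2130 counts for Phgdh itself.

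Psat1 (chr19:15904678-15947337) encodes phosphoserine aminotransferase, the second step. It was at 3.80, 1.47, 6.497 and 5.84 CPM in WT females, at 3.97, 5.10, 4.805 and 5.74 CPM in WT males, at 22.6, 18.9, 20.6 and 23.8 CPM in OPA1 BKO females and at 45.9, 40.7, 51.6 and 34.3 CPM in OPA1 BKO males. Again no OPA1 BKO mouse overlapped with WT. Within the OPA1 BKO mice the 4 males also lay above the 4 females, whereas in WT the sexes overlapped. The mean was 4.65 ± 1.58 CPM for WT against 32.3 ± 12.6 CPM for OPA1 BKO mice (SD, n = 8 each). This gave a log2 fold change of 2.71 with a standard error of 0.23 (edgeR adjusted p = 2.53e-07).

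Psph (chr5:129765558-129787449) encodes phosphoserine phosphatase, which releases free serine in the last step. It ranged from 18.1 to 34.5 CPM in WT, with a median of 29.5, and from 21.3 to 32.1 CPM in OPA1 BKO mice, with a median of 27.6. The genotypes overlapped almost completely. Its log2 fold change was -0.02, with a 95% interval from -0.20 to 0.16 (edgeR adjusted p = 0.849). On the TPM scale, which accounts for transcript length and so allows levels of different genes to be set side by side, the order of the pathway changed. Psph was above Phgdh in 8 of 8 WT mice, and Phgdh was above Psph in 8 of 8 OPA1 BKO mice. Mean levels in WT were 17.7 TPM for Psph, 4.79 for Phgdh and 1.89 for Psat1, and in OPA1 BKO mice 34.5, 62.7 and 23.5 TPM. Psat1 stayed below Psph in all 8 mice of each genotype. TPM of most genes were higher in OPA1 BKO mice, by a median of 0.81 on the log2 scale over all genes tested, beside the smaller part of the total that the mitochondrial genome took. Mean TPM are therefore given to set genes side by side within a genotype, not to compare genotypes. Apart from the alternative fits made from TPM, only orders, ratios and shares within a mouse are used from TPM.

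**Figure D1:**
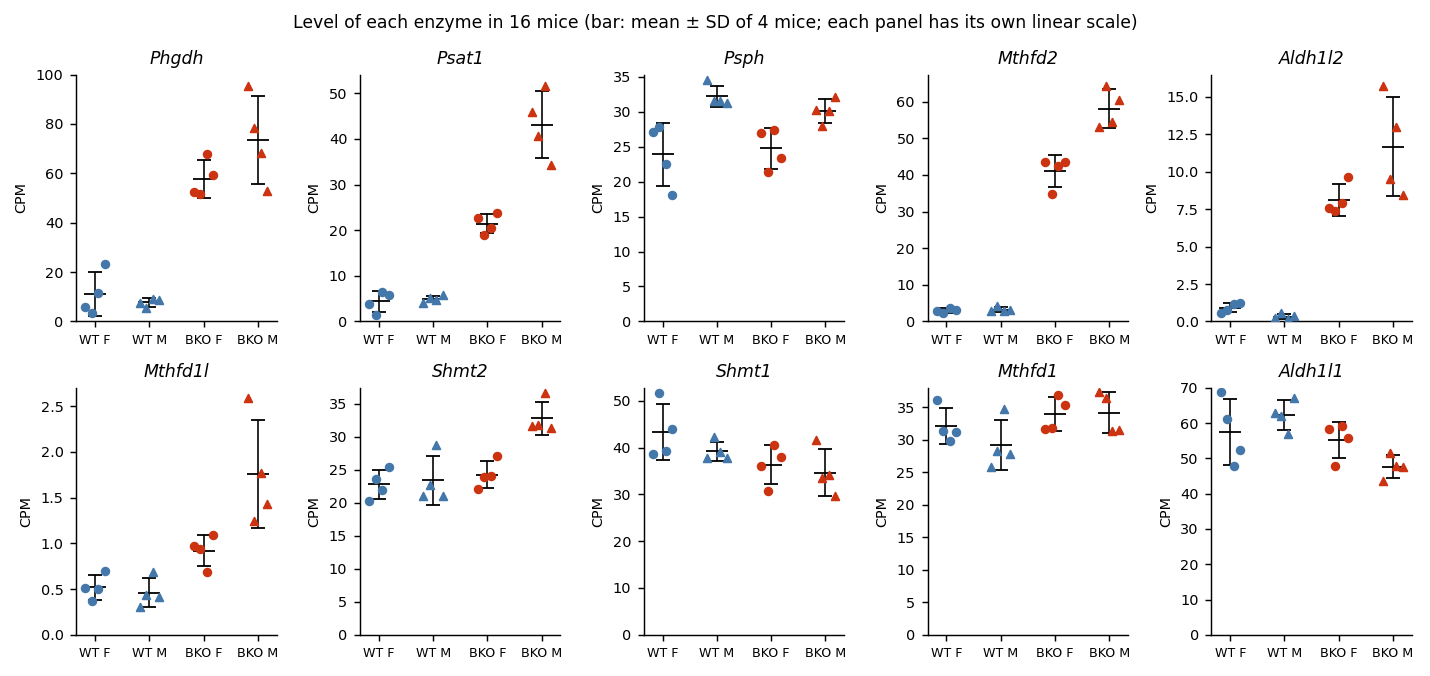
Level of each of the 10 enzyme transcripts in CPM (vertical axis, linear from 0, own scale in each panel) in every mouse, with circles for females (F), triangles for males (M), blue for WT, red for OPA1 BKO and bars for the mean ± SD of 4 mice. The red points of Phgdh, Psat1, Mthfd2 and Aldh1l2 lie clear of the blue ones, while those of Psph, Shmt1, Mthfd1, Aldh1l1 and Shmt2 overlap with them.

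All 4 mitochondrial folate enzymes were higher in OPA1 BKO mice, by amounts that differed widely. Mthfd2 and Aldh1l2 rose about as much as each other and far more than Mthfd1l, and Shmt2 rose least. Mthfd2 (chr6:83305691-83325908) encodes the mitochondrial methylenetetrahydrofolate dehydrogenase and cyclohydrolase, which is abundant in embryos and dividing cells and low in most adult tissues. It was at 2.84, 2.33, 3.81 and 3.17 CPM in WT females and at 2.90, 4.17, 2.75 and 3.04 CPM in WT males. In OPA1 BKO mice it was at 43.7, 34.7, 42.5 and 43.7 CPM in females and at 53.2, 64.3, 54.5 and 60.6 CPM in males. The lowest OPA1 BKO mouse was far above the highest WT mouse. The mean was 3.12 ± 0.60 CPM for WT against 49.6 ± 10.1 CPM for OPA1 BKO mice (SD, n = 8 each). On the log2 scale the change was 3.96 with a standard error of 0.12 (15.6-fold, edgeR adjusted p = 1.22e-12). This ranked it 27 of 15632 by log2 fold change. OPA1 BKO female 3, in which the summed level of the macrophage markers, 131 CPM, lay within the range of WT mice, had 42.5 CPM of Mthfd2. The summed level of the proliferation markers was higher in every OPA1 BKO mouse than in any WT mouse. The part of macrophages and of proliferating cells in the rise of Mthfd2 was not tested.

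Aldh1l2 (chr10:83487450-83534140) encodes the mitochondrial 10-formyltetrahydrofolate dehydrogenase, which oxidizes the carbon unit to CO2 and makes NADPH. Its counts in WT were few, at 10, 12, 19 and 25 in females and 3, 8, 2 and 5 in males. In OPA1 BKO mice there were 141, 149, 160 and 222 counts in females and 304, 260, 214 and 225 in males. As CPM this was 0.15 to 1.24 with a median of 0.57 in WT against 7.35 to 15.7 with a median of 8.999 in OPA1 BKO mice. No mice overlapped between genotypes. This gave a log2 fold change of 3.94 with a standard error of 0.33 (edgeR adjusted p = 1.70e-07), which ranked it 29 of 15632.

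Mthfd1l (chr10:3973118-4167081) encodes the mitochondrial formate-tetrahydrofolate ligase that releases formate. Its counts were also few, at 4 to 14 per WT mouse and 14 to 50 per OPA1 BKO mouse. In WT it lay between 0.31 and 0.69 CPM with a median of 0.47, and in OPA1 BKO mice between 0.69 and 2.58 CPM with a median of 1.17. The ranges met, since the lowest OPA1 BKO mouse, at 0.690 CPM, was just under the highest WT mouse, at 0.693 CPM. Its log2 fold change was 1.36 with a standard error of 0.25 (edgeR adjusted p = 0.000476).

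Shmt2 (chr10:127517123-127522444) encodes the mitochondrial serine hydroxymethyltransferase, by which serine gives up its carbon in mitochondria. It was at 20.3 to 28.8 CPM in WT, with a median of 22.3, and at 22.1 to 36.5 CPM in OPA1 BKO mice, with a median of 29.2. The OPA1 BKO females lay within the range of WT mice and the 4 OPA1 BKO males lay above it. On the log2 scale the change was 0.29 with a standard error of 0.09 (edgeR adjusted p = 0.0169), a call that was lost with counts scaled from TPM by length (edgeR adjusted p = 0.0642). In the 8 mice with under 1000 CPM of skeletal muscle markers, 2 in each group and chosen after the data were seen, the log2 fold changes were 4.14 for Mthfd2, 3.89 for Aldh1l2, 0.92 for Mthfd1l (edgeR adjusted p = 0.101) and 0.18 for Shmt2 (edgeR adjusted p = 0.369), so the calls of the last 2 were lost with these fewer mice.

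The cytosolic counterparts moved little. Shmt1 (chr11:60788104-60811718), the cytosolic serine hydroxymethyltransferase, was at 37.7 to 51.6 CPM in WT, with a median of 39.2, and at 29.6 to 41.6 CPM in OPA1 BKO mice, with a median of 35.1. Aldh1l1 (chr6:90486427-90600203), the cytosolic 10-formyltetrahydrofolate dehydrogenase, was at 47.7 to 68.8 CPM in WT, with a median of 61.5, and at 43.7 to 59.1 CPM in OPA1 BKO mice, with a median of 49.8. Both ranges overlapped between genotypes. Both genes were called lower, with log2 fold changes of -0.22 (edgeR adjusted p = 0.0423) and -0.22 (edgeR adjusted p = 0.0458) and standard errors of 0.08. Neither call was firm. With normalization to library size alone the log2 fold changes turned to 0.34 and 0.34, and under 10 of 16 omissions of a single mouse for Shmt1 and 11 of 16 for Aldh1l1 the adjusted p-value was no longer under 0.05. Mthfd1 (chr12:76255298-76319803) encodes a cytosolic enzyme with all 3 activities of the folate interconversion. It was at 25.8 to 36.1 CPM in WT against 31.4 to 37.4 CPM in OPA1 BKO mice. This gave a log2 fold change of 0.15, with a 95% interval from 0.001 to 0.31 (edgeR adjusted p = 0.0999).

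In sum over the 10 genes, 6 were higher, 2 were lower and 2 were not called, and 4 had every OPA1 BKO mouse above every WT mouse while 0 had every one below. Of all genes tested, 20.8% were higher and 20.2% were lower, so 2 of 10 lower was no more than the background gives. Separation of the genotypes without overlap was seen upward in 5.07% of all genes and downward in 4.89%. The median log2 fold change was 0.82 over the 10 genes and 0.01 over all genes tested. By compartment, 4 of 4 mitochondrial folate enzymes and 2 of 3 enzymes of serine synthesis were higher, while 0 of 3 cytosolic folate enzymes were. A list of 3 genes is too short to tell 0 higher from the background share of 20.8%. Scaling by library size only moved the median of all genes to 0.57 on the log2 scale and called 10869 of all 15632 genes higher. All 10 enzymes were then called higher and Psph turned to 0.54. The directions of the enzymes with small changes therefore hold only relative to the other genes.

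**Figure D2:**
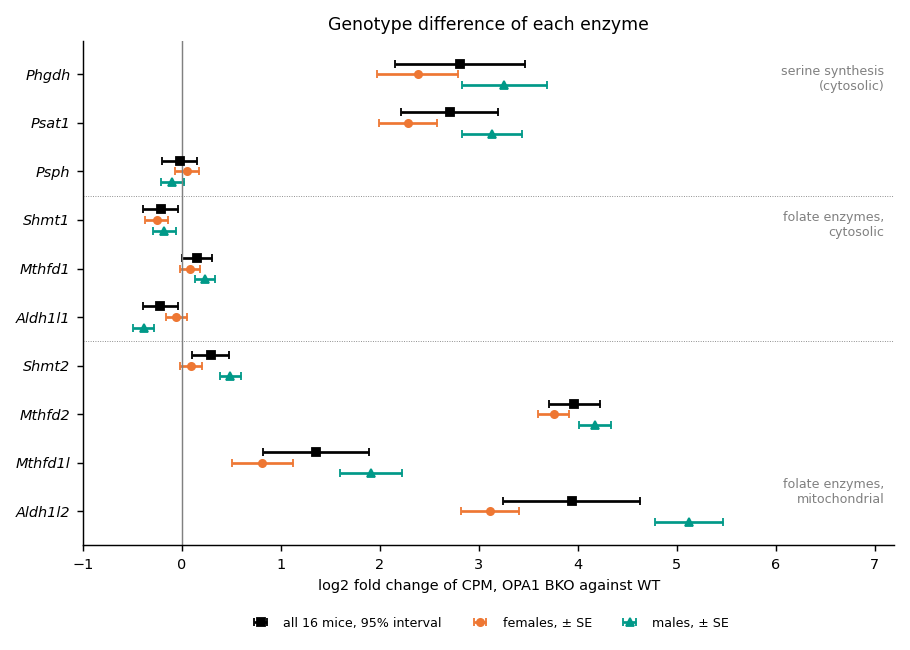
Log2 fold change of CPM, OPA1 BKO against WT (horizontal axis), for each enzyme, grouped by pathway and compartment. Black squares with 95% intervals are from all 16 mice, and orange circles and green triangles with ± SE are from females and males alone. Mthfd2 and Aldh1l2 lie near 4, Phgdh and Psat1 near 3, and the 3 cytosolic folate enzymes within 0.4 of 0 by their points.

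Mitochondrial enzymes were then set against their cytosolic counterparts as a ratio of TPM within a mouse, in which differences in scale between libraries cancel. There were 4 such pairs and 1 of 2 mitochondrial enzymes, Mthfd2 and Mthfd2l, and the exact two-sided permutation test over mice was adjusted over the 5 pairs. The ratio of Shmt2 to Shmt1 lay between 0.389 and 0.743 (median 0.463) in WT and between 0.480 and 0.913 (median 0.625) in OPA1 BKO mice. Shmt1 was the more abundant in all 16 mice when all transcripts of a gene were summed, of which Shmt1-201, its main coding form, was 43.3% of the TPM in WT against 42.8% in OPA1 BKO mice. By the main coding transcript of each gene alone, Shmt2 was the more abundant in 0 of 8 WT mice and in 4 of 8 OPA1 BKO mice, so the order in OPA1 BKO mice depended on the transcripts counted. The mean log2 ratio was higher in OPA1 BKO mice by 0.45 with a standard error of 0.16 (exact permutation adjusted p = 0.0143, n = 8 each).

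The ratio of Mthfd2 to Mthfd1 lay between 0.227 and 0.383 (median 0.324) in WT and between 1.897 and 3.08 (median 2.33) in OPA1 BKO mice. Mthfd2 was the less abundant in 8 of 8 WT mice and the more abundant in 8 of 8 OPA1 BKO mice. The mean log2 ratio differed by 2.89 with a standard error of 0.13 (exact permutation adjusted p = 0.000259, n = 8 each, from the smallest p that 8 against 8 can give). The ratio of estimated counts differed by more, 3.83 on the log2 scale.

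Mthfd2 was also compared with Mthfd2l, a second mitochondrial enzyme of the same reaction, which is the form expressed in many adult tissues. The ratio of Mthfd2 to Mthfd2l lay between 0.589 and 1.38 (median 0.987) in WT, on either side of equal levels, with Mthfd2 the higher in 2 of 8 mice. In OPA1 BKO mice it ranged from 5.94 to 11.4 with a median of 7.41. The mean log2 ratio differed by 3.01 with a standard error of 0.17 (exact permutation adjusted p = 0.000259, n = 8 each). By the main coding transcript of each gene alone, Mthfd2 was the higher in 1 of 8 WT mice and in 8 of 8 OPA1 BKO mice. Mthfd2l itself was at 4.999 CPM on average in WT against 4.32 CPM in OPA1 BKO mice. Its log2 fold change was -0.21, with a 95% interval from -0.45 to 0.04 (edgeR adjusted p = 0.165).

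The ratio of Aldh1l2 to Aldh1l1 was 0.00141 to 0.0199 with a median of 0.00524 in WT against 0.0707 to 0.162 with a median of 0.0850 in OPA1 BKO mice. The ratio differed by 4.22 on the log2 scale with a standard error of 0.52 (exact permutation adjusted p = 0.000259, n = 8 each). The cytosolic enzyme was nevertheless the more abundant in all 16 mice. The ratio of Mthfd1l to Mthfd1 was 0.00820 to 0.01999 in WT against 0.0154 to 0.0642 in OPA1 BKO mice, a log2 difference of 1.31 with a standard error of 0.30 (exact permutation adjusted p = 0.000777, n = 8 each). Both numerators rested on few counts in WT mice, and with 0.1 TPM added to each gene the differences were 3.07 and 0.71. Within each sex, where 4 against 4 mice cannot give an exact p below 0.0286, the ratios of Mthfd2 and Aldh1l2 passed in females (adjusted p = 0.0476) and in males (adjusted p = 0.0357), that of Mthfd1l did so in males alone (adjusted p = 0.0571 in females), and that of Shmt2 did so in neither (adjusted p = 0.0571 and 0.0857, all exact permutation tests). In the mice with little muscle RNA the ratios of Shmt2 and Mthfd1l did not pass either (exact permutation adjusted p = 0.286 and 0.107).

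As a description, the 4 mitochondrial enzymes together made up 19.0% to 25.7% of the summed TPM of the 7 folate enzymes in WT mice, with a median of 21.3%, and 38.6% to 52.8% in OPA1 BKO mice, with a median of 44.5%. Mthfd2 alone was 16.5% to 29.9% of the mitochondrial sum in WT against 58.5% to 65.7% in OPA1 BKO mice. The WT share depended on the transcripts counted. Mthfd2-207, an incompletely annotated fragment of 443 bases, was on average 59.4% of the Mthfd2 TPM in WT against 8.09% in OPA1 BKO mice. In WT the mitochondrial sum was mostly Shmt2, at 10.5 TPM on average, while in OPA1 BKO mice Mthfd2 was above Shmt2 in 8 of 8 mice.

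**Figure D3:**
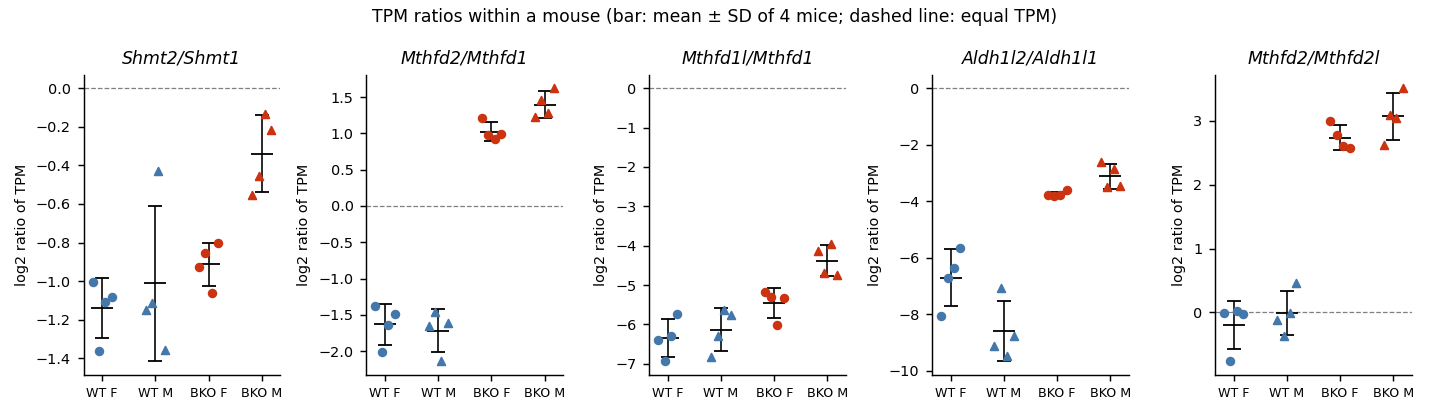
Log2 ratio of TPM within a mouse (vertical axis, own scale in each panel) for the 5 pairs, with circles for females (F), triangles for males (M), blue for WT, red for OPA1 BKO, bars for the mean ± SD of 4 mice and a dashed line at equal levels. Mthfd2 crosses the line against Mthfd1, from below in all WT mice to above in all OPA1 BKO mice, while Mthfd1l, Aldh1l2 and, with all transcripts summed, Shmt2 stay below it.

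The counts that Mthfd2 gained were assigned almost wholly to a single transcript. Mthfd2-201, the full-length coding form of 2085 bases, had 27.8 to 52.4 estimated counts in WT against 685 to 1737 in OPA1 BKO mice. Mthfd2-207, a fragment of 443 bases whose annotation is incomplete and which begins further upstream, had 6.41 to 16.8 counts in WT against 7.35 to 17.2 in OPA1 BKO mice, so its ranges nearly coincided. Because a short transcript weighs more per count in TPM, Mthfd2-201 was 33.2% ± 10.9 of the TPM of the gene in WT against 89.9% ± 3.399 in OPA1 BKO mice (SD, n = 8 each). With the most abundant coding transcript of each gene in place of the sum, the log2 ratio of Mthfd2 to Mthfd1 differed by 3.77 and that to Mthfd2l by 4.61. For Psat1, the form Psat1-201, whose start is the one printed above, was 46.3% ± 19.3 of the TPM of the gene in WT against 71.3% ± 13.5 in OPA1 BKO mice (SD, n = 8 each). These transcripts were singled out after their values were seen, and no test was made.

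**Figure D4:**
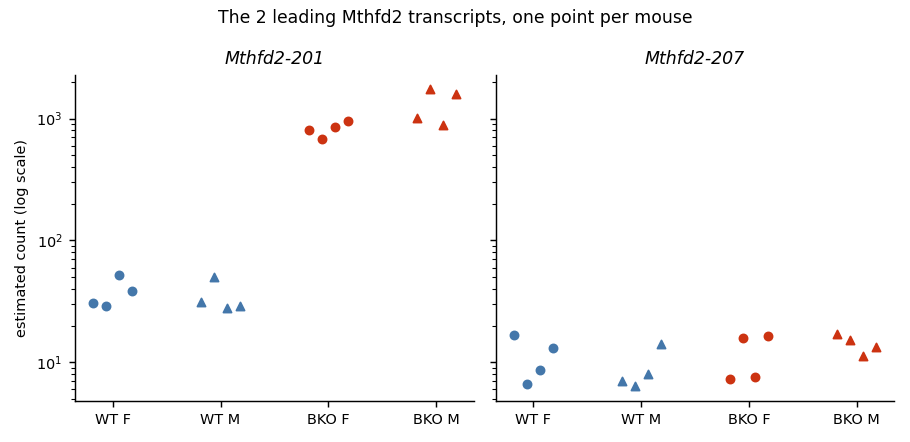
Estimated count (vertical axis, log scale) of Mthfd2-201 and Mthfd2-207 in each mouse, with circles for females (F), triangles for males (M), blue for WT and red for OPA1 BKO. All 8 OPA1 BKO mice lie between 685 and 1737 counts for Mthfd2-201, and both genotypes share the range below 17.2 counts for Mthfd2-207.

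Both sexes showed the rise of the 4 enzymes with large changes. In females alone 4 of the 10 genes were higher, where 8.96% of all genes were, and in males alone 6 were higher, where 17.9% of all genes were. The log2 fold change in females and in males was 2.38 and 3.26 for Phgdh, 2.28 and 3.13 for Psat1, 3.76 and 4.17 for Mthfd2 and 3.11 and 5.12 for Aldh1l2. Mthfd1l had 0.81 in females (edgeR adjusted p = 0.0766) and 1.91 in males (edgeR adjusted p = 0.000264), and Shmt2 had 0.09 (edgeR adjusted p = 0.623) and 0.49 (edgeR adjusted p = 0.00282). Aldh1l1 was lower in males, with a log2 fold change of -0.38 (edgeR adjusted p = 0.0113), and had -0.06 in females (edgeR adjusted p = 0.762). The point estimate was larger in size in males for each of the 6 genes called higher. This was not counted over all genes, of which a larger share was called higher in males than in females. It is not read as particular to these enzymes. The interaction of genotype and sex was tested for all genes, of which 0.115% passed with adjusted p-values under 0.05, and 0 of the 10 genes did so by edgeR. Before adjustment 4 of the 10 had p under 0.05, a count not set beside all genes and not read as a result. The largest of these differences between the sexes was that of Aldh1l2, at 2.01 on the log2 scale, with 0.000459 before and 0.0755 after adjustment. The WT males held only 2 to 8 counts of it.

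Around these enzymes, 59 other genes of serine, glycine, folate and methionine metabolism were listed, of which 51 were tested, 18 were higher, 8 were lower and 25 were not called. Their median log2 fold change was 0.04. The background was 20.8% of all genes higher and 20.2% lower. Under scaling by library size only, 45 of the 51 were higher and 0 lower, where 10869 of all 15632 genes were higher and 373 lower. Ptdss2 and Mthfd2l then turned to 0.03 and 0.35. All 5 genes of transsulfuration and glutathione synthesis were higher over all 16 mice, but 1 of the 5, Gss, was so in females alone and 3 were so in the mice with little muscle RNA. Cbs, cystathionine beta-synthase, which joins serine to homocysteine, had a log2 fold change of 1.53 (edgeR adjusted p = 0.00416), and Cth, which splits cystathionine to cysteine, had 1.13 (edgeR adjusted p = 0.00184). Cbs was at only 0.46 CPM on average in WT against 1.32 CPM in OPA1 BKO mice. Gss, glutathione synthetase, rose by 0.86 on the log2 scale with no overlap between genotypes, and Gclc and Gclm, the subunits of glutamate-cysteine ligase, rose by 0.44 and 0.33. The call of Cbs was lost with counts scaled from TPM by length (edgeR adjusted p = 0.0725), and those of Cbs and Cth were lost in females alone and in the 8 mice with little muscle RNA. In females Gclc had 0.10 (edgeR adjusted p = 0.640) and Gclm had 0.21 (edgeR adjusted p = 0.397), and the call of Gclm was also lost without WT female 4, WT male 4, OPA1 BKO female 1 or OPA1 BKO male 4.

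Of the 7 transporters of serine and glycine, 3 were higher. Slc6a9, the glycine transporter GLYT1, had a log2 fold change of 1.55 (edgeR adjusted p = 7.02e-05) with no overlap, Slc1a4, a carrier of neutral amino acids, had 0.86, and Sfxn1, the serine carrier of the inner mitochondrial membrane, had 0.30 on the same scale. Of 6 tested genes of folate uptake and transport, 2 were higher and 1 was lower. Slc19a1, the reduced folate carrier, fell by 0.63 on the log2 scale with no overlap. Folr2, a folate receptor known in macrophages, was the largest change in this list, with a log2 fold change of 0.81 (edgeR adjusted p = 0.00822). Macrophage markers were higher too, and their part in the change of Folr2 was not tested. In the mice with little muscle RNA the calls of Slc1a4, Sfxn1 and Folr2 were lost, and in females alone those of Sfxn1 and Folr2. Slc25a32, the carrier that brings folate into mitochondria, was at 20.1 and 19.9 CPM on average in WT and OPA1 BKO mice, and its log2 fold change of -0.02 had a 95% interval from -0.37 to 0.33.

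Among the other folate-dependent enzymes 2 of 6 tested were higher and 1 lower. Tyms, thymidylate synthase, was one of the higher genes, with a log2 fold change of 0.49 and no overlap between genotypes, and its call was lost in the mice with little muscle RNA (edgeR adjusted p = 0.0609). In the methionine cycle 3 of 7 tested were higher and 1 lower, with the largest change in Mtr, methionine synthase, whose log2 fold change was 0.53, with no overlap between genotypes. In purine synthesis 2 of 6 were higher and 0 lower, and Atic, which uses formyl-folate for the last steps, had the largest log2 fold change, 0.49, which did not pass in females alone (edgeR adjusted p = 0.146). The glycine cleavage system, which breaks down glycine in mitochondria, had 0 of 4 higher and 1 lower. Gcsh, its lipoyl carrier protein, fell by 0.71 on the log2 scale with no overlap, and Gldc, its decarboxylase, was at 0.20 and 0.41 CPM in the 2 genotypes and its log2 fold change of 0.97 did not pass (edgeR adjusted p = 0.0873). In choline, betaine and sarcosine oxidation 1 of 4 tested was higher and 2 were lower, and the largest change was in Gnmt, glycine N-methyltransferase, which fell by 0.80 on the log2 scale over all mice (edgeR adjusted p = 0.00546). It had -0.23 in females (edgeR adjusted p = 0.489) and -1.38 in males (edgeR adjusted p = 0.000189), and its call was lost in the mice with little muscle RNA (edgeR adjusted p = 0.109) and under scaling by library size only (edgeR adjusted p = 0.286). Among 6 tested genes that use or break down serine 0 were higher and 2 lower, Ptdss1 and Ptdss2, which make phosphatidylserine. The call of Ptdss1 was lost in the mice with little muscle RNA (edgeR adjusted p = 0.0802). Ptdss2 fell by 0.52 on the log2 scale with no overlap between genotypes.

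**Figure D5:**
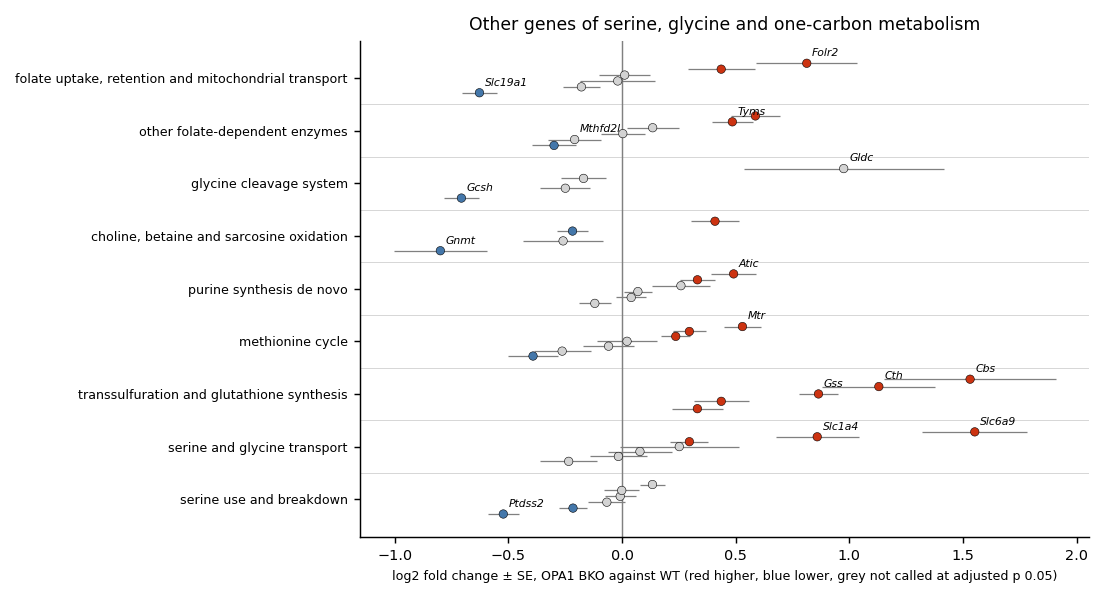
Log2 fold change ± SE, OPA1 BKO against WT (horizontal axis), of the 51 other tested genes in 9 lists, one point per gene, red for higher, blue for lower and grey for not called at an adjusted p-value of 0.05. All 5 points of transsulfuration and glutathione synthesis are red, and those of the other lists lie on both sides of 0.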

How the data were processed

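RNA from BAT of 16 mice was sequenced from polyadenylated, stranded libraries. The authors quantified reads with Kallisto 0.45.0, and the deposited files give for each transcript an estimated count, not normalized between mice, and a TPM, scaled by the authors to a fixed total. The processing notes name mm10. The authors' other pipeline, based on alignment, was not analysed here. Transcripts were joined by identifier, version removed, to GENCODE M21 (133284 of 135308 matched), and both values were summed per gene. Estimated counts were rounded, filtered with filterByExpr (minimum count 10, minimum total 15), normalized by TMM and tested with the quasi-likelihood test of edgeR 4.0.16 in R 4.3.3, with a term for sex. Effects within each sex and the interaction came from a model with 1 mean per group. Adjustment over the 15632 genes followed Benjamini and Hochberg. Isozyme ratios were compared by exact permutation tests of log2 TPM ratios (scipy 1.17.1). Fits were tested on simulated data in which few genes changed, which does not test the normalization where many genes change. Alternatives were DESeq2 1.42.0, its size factors, library size alone, the mitochondrial genome left out, other filters, no sex term, length-scaled TPM counts, limma 3.58.1 on log2 (TPM + 0.5), each sex alone and each mouse left out. The labels give no litters, pairs or batches, and mice were taken as independent. The sources used here name no molecular identifiers. Named genes were the 10 members, other pathway genes called with an absolute log2 fold change of at least 1, the gene with the largest change in each list, and Mthfd2l. Further genes were named after their values were seen. Of the genes this rule takes, 1 is left out of the text. The members, lists and motifs were chosen with earlier results of these data known.

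Marker lists covered brown adipocytes (4 of 10 lower, 1 higher), lymphocytes (3 of 6 lower), liver and neural cells known for Aldh1l1 (1 of 3 tested lower) and the other types given in the text.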

Additional observations from a re-analysis of the deposited data

Results flagged for a closer look

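In groups of 4, the level of each enzyme and each ratio was examined for a mouse that stood apart from the other 3. Of 60 such groups 5 held one, where chance alone gives about 1 in 20. Psph was at 34.5 CPM in WT male 1, against 31.2 to 31.5 CPM in the other WT males. Shmt2 was at 36.5 CPM in OPA1 BKO male 3, against 31.3 to 31.7 CPM in the other 3, and this mouse had the highest summed macrophage and proliferation markers of all 16, at 538 and 40.9 CPM. Mthfd2 was at 34.7 CPM in OPA1 BKO female 2, below the other 3 at 42.5 to 43.7 CPM, and this library held 10339 CPM of skeletal muscle markers. The log2 ratio of Mthfd1l to Mthfd1 was -6.02 in OPA1 BKO female 3, the mouse with the fewest Mthfd1l counts of its genotype, 14. The log2 ratio of Mthfd2 to Mthfd2l was -0.76 in WT female 2, where the other WT females were near 0. None of these 5 mice changed a call on Mthfd2, Aldh1l2, Phgdh or Psat1 when it was left out.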

How the results depend on the processing

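Phgdh, Psat1, Mthfd2 and Aldh1l2 stayed higher with adjusted p-values under 0.05 under every alternative run. Genes called, 6412 in all, numbered 11242 with library size alone, 13611 with limma on log2 TPM, 2694 in females only and 3442 in the mice with little muscle RNA, an alternative added after the data were seen, and 5876 to 6482 when a mouse was left out. Members higher numbered 10 with library size alone and with limma on log2 TPM, and 6 to 7 when a mouse was left out. Library size alone and limma on log2 TPM shift all genes by a median of 0.57 and 0.81 on the log2 scale. Of all 15632 genes, 10869 and 13492 were higher and 373 and 119 lower under these 2 settings. Members lower numbered 0 with these, with no filter on low counts, with length-scaled TPM counts, in females only and in the mice with little muscle RNA, 1 in males only, and 0 to 2 when a mouse was left out. Other pathway genes higher numbered 45, 50, 6 and 9, and lower 0, 0, 3 and 3, with library size alone, limma on log2 TPM, females only and the mice with little muscle RNA, and lower 5 with no filter. Left-out mice gave 16 to 20 higher and 8 to 10 lower.

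Psph turned to 0.54 and 0.94 with library size alone and limma on log2 TPM, Shmt1 to 0.34 and 0.72, Aldh1l1 to 0.34 and 0.74, Mthfd2l to 0.35 and 0.75 and Ptdss2 to 0.031 and 0.50, and Gnmt to 0.086 with limma on log2 TPM. Psph also turned to 0.025 with no filter, 0.0084 with length-scaled TPM counts, 0.052 in females, 0.063 in the mice with little muscle RNA and between -0.092 and 0.0024 when a mouse was left out. The cause was not tested for settings that use fewer mice or another filter. Log2 ratios of Shmt2 to Shmt1 were 0.23 in females, 0.67 in males and 0.25 in the mice with little muscle RNA (exact permutation adjusted p = 0.0571, 0.0857 and 0.286), and those of Mthfd1l to Mthfd1 were 0.88 in females and 0.99 in the mice with little muscle RNA (exact permutation adjusted p = 0.0571 and 0.107). The smallest p of 4 against 4 is 0.0286. No value was had for Mthfd1l to Mthfd1 from the most abundant coding transcript, which was at 0 in a mouse. The ratios kept their direction and call whichever mouse was left out. No paired analysis was possible because the labels give no replicate numbers, and the numbers used here to name mice follow the order of deposit and pair none. Depth limits Mthfd1l, Cbs, Gldc and, in WT, Aldh1l2, which had few counts.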
